A study of Mus musculus with 6 samples.

Results

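The Indian hedgehog signalling route of the uterus was followed through 9 genes in whole uteri of mice in which Nat10, an RNA cytidine acetyltransferase gene, had been deleted. The genes are Ihh, Ptch1, Smo, Gli1, Gli2, Gli3, Hhip, Nr2f2 and Hand2. They were chosen by name, and each was found once among the 20637 genes listed for every library. Uteri were taken from female mice on postnatal day 21, before puberty, and polyadenylated RNA was sequenced in 3 libraries from Nat10 f/f mice, which carry floxed alleles and served as controls, and 3 from Nat10 d/d mice, which carry deleted alleles. No label says which Cre was used, where it acts or what the strain is, and litter, batch and date are not given either. The labels number the libraries as replicates without saying that each came from a separate animal, so p-values measure only the spread between these libraries.

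Indian hedgehog is a secreted ligand made by the uterine epithelium, where progesterone acting through its receptor raises it. It binds the receptor Patched 1 on neighbouring stromal cells, which frees Smoothened to signal through the primary cilium to the Gli transcription factors. Ptch1, Gli1 and Hhip are themselves induced by the signal and are commonly read as its output, while Gli2 acts mainly as an activator and Gli3 mainly as a repressor. Nr2f2 encodes COUP-TFII, a nuclear receptor of the stroma that acts downstream of Ihh, and Hand2 encodes a stromal basic helix-loop-helix factor that restrains fibroblast growth factor production.

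Promoters of the ligand, of 2 genes that respond to hedgehog and of Gli2 are shown because the results below turn on these genes. Each is the 250 bases before a RefSeq transcription start in build GRCm38.p6, 5′ to 3′ on the gene's own strand. Capitals mark the GLI core ACCACCC or its reverse complement GGGTGGT.
Ihh (chr1:74951673-74951922, minus strand): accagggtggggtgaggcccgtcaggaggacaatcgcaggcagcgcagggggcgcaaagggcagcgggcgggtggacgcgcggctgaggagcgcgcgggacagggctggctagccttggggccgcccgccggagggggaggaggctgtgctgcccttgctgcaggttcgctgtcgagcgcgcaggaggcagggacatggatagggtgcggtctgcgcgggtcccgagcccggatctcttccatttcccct
Ptch1 (chr13:63565736-63565985, minus strand): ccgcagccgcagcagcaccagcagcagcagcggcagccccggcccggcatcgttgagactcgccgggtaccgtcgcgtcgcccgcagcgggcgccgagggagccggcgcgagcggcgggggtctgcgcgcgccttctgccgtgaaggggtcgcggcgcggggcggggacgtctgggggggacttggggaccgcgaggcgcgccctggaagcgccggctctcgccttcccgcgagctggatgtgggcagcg
Hhip (chr8:80058009-80058258, minus strand): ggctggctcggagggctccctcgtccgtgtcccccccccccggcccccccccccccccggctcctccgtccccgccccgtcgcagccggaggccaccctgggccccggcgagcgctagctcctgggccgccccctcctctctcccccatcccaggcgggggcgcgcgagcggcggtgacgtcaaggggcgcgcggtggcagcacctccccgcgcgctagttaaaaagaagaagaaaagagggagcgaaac
Gli2 (chr1:119053620-119053869, minus strand): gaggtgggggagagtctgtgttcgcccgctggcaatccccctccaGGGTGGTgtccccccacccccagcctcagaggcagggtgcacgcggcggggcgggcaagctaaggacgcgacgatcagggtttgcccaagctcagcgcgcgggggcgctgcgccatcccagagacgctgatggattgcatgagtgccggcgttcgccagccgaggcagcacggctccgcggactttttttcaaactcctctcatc
No GENCODE M21 exon overlapped these 4 windows. The Ptch1 window lies before an internal start, since the annotated gene reaches further upstream. Windows were found for 8 of the 9 genes. The full GLI site GACCACCCA, searched on both strands, was in none of the 8, and it occurred in 0.225% of the 32851 promoter windows in the table. The 7-base core, which the full site contains, occurred in 3.92% of all windows and in 1 of the 8, that of Gli2, where it began 205 bases before the start. The windows of Ihh, Ptch1, Hhip and Gli2 were 72%, 78.4%, 76% and 67.2% G and C, against a median of 52.4% over all windows. They held 24, 41, 28 and 22 CpG dinucleotides, against a median of 6.

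Values were deposited as FPKM, read abundance per gene length and library depth, and group differences are given on log2(FPKM + 1). Nat10, the targeted gene, was at 13.2, 16.4 and 9.95 FPKM in the controls and at 5.57, 5.23 and 5.53 in the deleted uteri. Library sums ranged from 500764 to 549263, and read depth is unknown. Markers of epithelium, stroma, smooth muscle and endothelium were present in all 6 libraries. Of 9 ovary markers, Fshr, Cyp19a1 and Zp3 were listed at 0 throughout and Amh, Cyp11a1 and Bmp15 stayed under 1 FPKM. Gdf9 reached 1.58 FPKM, Inha was at 5 to 9.24 and Foxl2 at 26.7 to 28.9 in controls and 18.1 to 24 in deleted uteri (limma p 0.0202 before and 0.922 after adjustment). The part of ovarian RNA in the results was not tested. No gene passed an adjusted p of 0.05 among 12640 tested with limma (0% called), and 630 (4.98%) had an unadjusted p under 0.05. Deleted replicate 2 stood apart from the other libraries. Its 10 proliferation markers summed to 193 FPKM, against 18.7 and 9.83 in deleted replicates 1 and 3 and 20.1 to 80 in controls, and all 10 were highest in it.

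None of the 9 genes passed the test between deleted and control uteri (0 of 9, against 0% of all tested genes), and their median log2 change was -0.01, against 0.03 over all tested genes. All 9 passed the filter on low values, which asked for at least 1 FPKM in at least 3 libraries. Hhip passed it with 1 control and 3 deleted libraries. In the controls Nr2f2 was the most abundant, at 74.8 ± 1.93 FPKM (SD, n = 3), followed by Smo at 68.6 ± 1.24. Gli1 (40.6 ± 3.47) and Hand2 (37.4 ± 1.69) came next, and their control values overlapped. Ptch1 (28.4 ± 2.68), Ihh (16.2 ± 1.98), Gli2 (11 ± 1.14), Gli3 (5.71 ± 0.628) and Hhip (0.86 ± 0.24) followed, each below every control value of the gene before it. Nr2f2 stood at percentile 92.6 of tested genes by control mean, Ihh at percentile 57.7 and Hhip at percentile 0.324.

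**Figure D1:**
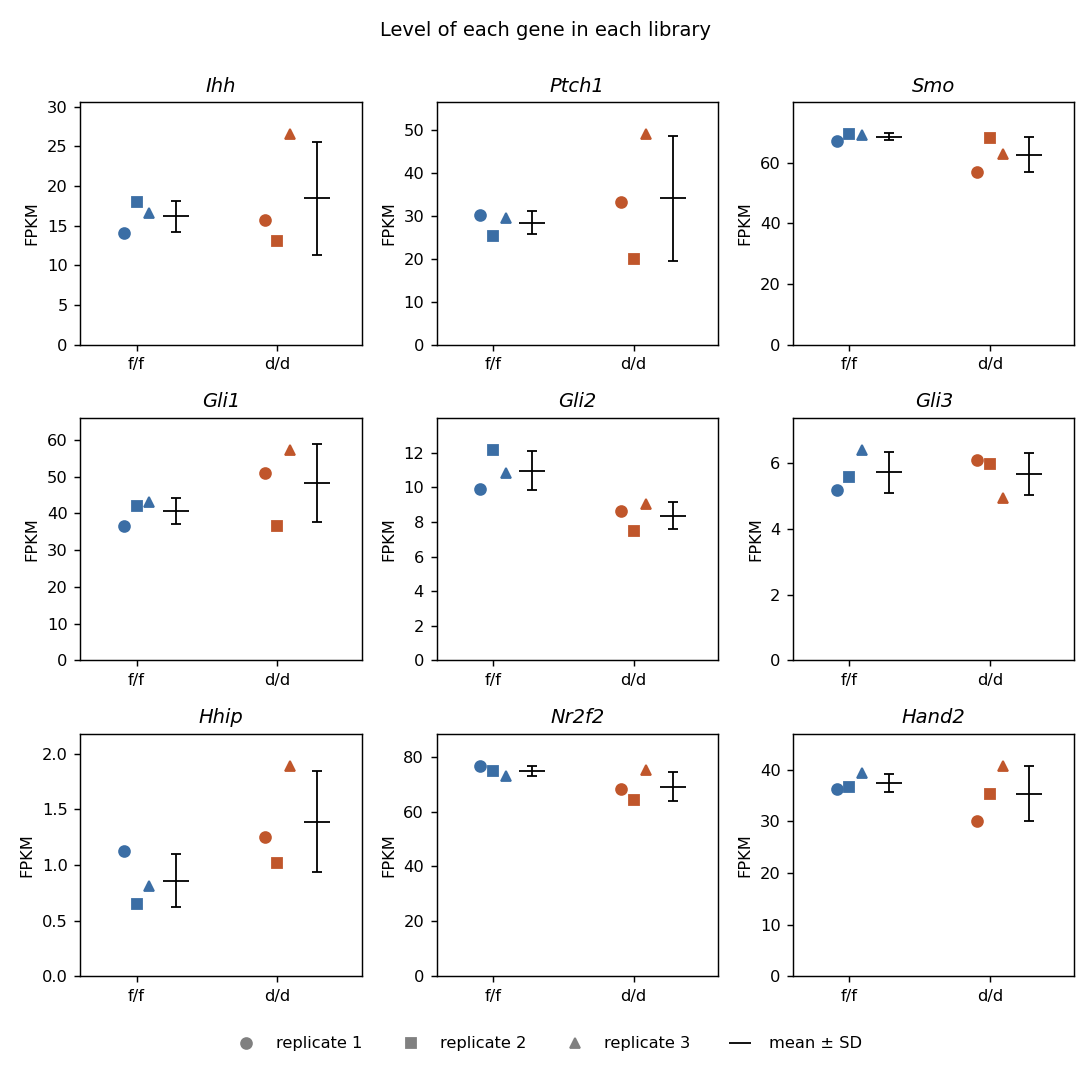
FPKM (vertical axes, each from 0) of the 9 genes in 3 control (f/f) and 3 deleted (d/d) libraries, with the mean ± SD of each group. Ihh, Ptch1, Gli1, Hhip and Hand2 were highest in deleted replicate 3, and Gli2 is the 1 gene whose groups did not overlap.

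Ihh (ENSMUSG00000006538; chromosome 1, 74945315 to 74951672, minus strand) did not differ between the groups beyond the spread of the deleted libraries. Its values were 14.1, 18 and 16.6 FPKM in controls and 15.7, 13.1 and 26.6 in deleted replicates 1, 2 and 3. Deleted replicate 1 lay inside the control range, replicate 2 just below it and replicate 3 above it. Control and deleted means were 16.2 ± 1.98 and 18.4 ± 7.17 (SD, n = 3), which gave a log2 change of 0.12 (SE 0.24, 95% interval -0.45 to 0.69, limma adjusted p 0.982). The interval runs from 0.734 to 1.61 times the control level, and these libraries do not exclude differences within it. Without deleted replicate 3 the change was -0.16, and without deleted replicate 2 it was 0.32.

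Ihh was nearly the whole of the listed ligand RNA. Shh, the paralogous ligand Sonic hedgehog, was listed at 0 in all 6 libraries. Dhh, which encodes Desert hedgehog, a ligand best known in testis and peripheral nerve, was listed between 0.671 and 1.48 FPKM and did not pass the filter. Exons of Rhebl1 and of an antisense gene overlap 12.4% and 25.2% of its exon bases, so these low values are uncertain. Ihh made up 93.9% to 96.2% of the summed FPKM of Ihh, Dhh and Shh in controls and 94.5% to 95.9% in deleted uteri.

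Pgr, the progesterone receptor gene that acts upstream of Ihh, was at 73.8, 62.2 and 60.3 FPKM in controls and at 35.3, 25.4 and 32.6 in deleted uteri. Every deleted library was below every control. Its log2 difference of -1.06 (SE 0.15) had a limma p of 0.000159 before and 0.669 after adjustment. Pgr thus did not pass the test either. Nor did Nat10, the targeted gene, with a log2 change of -1.11 (limma p 0.000265 before and 0.669 after adjustment). No tested gene had a smaller adjusted p than these genes. Deleted replicate 2 had the lowest Pgr and the lowest Ihh of the 6 libraries, and deleted replicate 3, with Pgr at 32.6 FPKM, had the highest Ihh.

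The receptor Ptch1 (ENSMUSG00000021466; chromosome 13, 63508328 to 63573598, minus strand) varied most among the deleted uteri. It was at 30.2, 25.3 and 29.6 FPKM in controls and at 33.2, 20 and 49.1 in deleted replicates 1, 2 and 3. The lowest and the highest of the 6 values were thus both from deleted uteri and differed 2.46-fold, against 1.19-fold among controls. For Ptch1 the log2 change was 0.17 (SE 0.29, 95% interval -0.50 to 0.84, limma adjusted p 0.972). It was 0.50 without deleted replicate 2 and -0.13 without deleted replicate 3.

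Smo (ENSMUSG00000001761; chromosome 6, 29735503 to 29761365, plus strand) encodes Smoothened, the transducer that Ptch1 holds inactive. It was steady in controls, at 67.2, 69.5 and 69.2 FPKM, and was 56.9, 68.3 and 62.9 in deleted uteri. Deleted replicates 1 and 3 lay below the controls and replicate 2 among them. Smo had a log2 change of -0.13 (SE 0.11, 95% interval -0.38 to 0.12, limma adjusted p 0.935). It was -0.065 without deleted replicate 1.

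Among the Gli factors, Gli1 had a higher and Gli2 a lower mean in deleted uteri, and Gli3 had nearly the same mean. Gli1 (ENSMUSG00000025407; chromosome 10, 127329882 to 127341974, minus strand), the factor that is itself a hedgehog target, was at 36.7, 42 and 43.2 FPKM in controls and at 51.1, 36.7 and 57.3 in deleted uteri. Deleted replicates 1 and 3 were above every control, and replicate 2 was level with the lowest control. Its log2 change was 0.23 (SE 0.17, 95% interval -0.18 to 0.63, limma adjusted p 0.926). The Gli1 change was 0.41 without deleted replicate 2 and 0.093 without deleted replicate 3.

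Gli2 (ENSMUSG00000048402; chromosome 1, 118834132 to 119053619, minus strand) was the 1 gene of the 9 whose groups did not overlap, where 10.7% of all tested genes were so separated and 4.6% were separated downward. It was at 9.91, 12.2 and 10.8 FPKM in controls and at 8.62, 7.47 and 9.01 in deleted uteri. All 3 deleted libraries were below the lowest control. Control and deleted means were 11 ± 1.14 and 8.37 ± 0.798 (SD, n = 3), so the deleted mean was 76.3% of control. The log2 change was -0.35 (SE 0.12, 95% interval -0.64 to -0.06). The limma p was 0.0238 before adjustment, a level that 2.3% of tested genes reached downward, and 0.922 after it, and the exact two-sided permutation test over libraries gave 0.1, the smallest p that 3 against 3 allows. The change ranged from -0.42 to -0.28 when any 1 library was left out. Its unadjusted limma p was no longer under 0.05 without control replicate 2, control replicate 3 or deleted replicate 2.

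Gli3 (ENSMUSG00000021318; chromosome 13, 15463235 to 15730026, plus strand) was at 5.16, 5.58 and 6.39 FPKM in controls and at 6.07, 5.97 and 4.93 in deleted uteri. The groups overlapped over nearly their whole range. Gli3 had a log2 change of -0.01 (SE 0.13, 95% interval -0.32 to 0.30, limma adjusted p 0.995).

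As a share of summed Gli FPKM, a measure chosen after the values were seen and independent of library scaling, Gli1 was 70.9%, 70.3% and 71.5% in controls and 77.7%, 73.2% and 80.4% in deleted uteri. Gli2 was 19.1%, 20.4% and 17.9% in controls and 13.1%, 14.9% and 12.6% in deleted uteri. Neither share overlapped between the groups, whereas the Gli3 share did, at 9.33% to 10.6% in controls and 6.91% to 11.9% in deleted uteri. The summed Gli level also overlapped, with a control mean of 57.3 ± 4.82 FPKM and a deleted mean of 62.4 ± 11 (SD, n = 3). The ratios of Ptch1 to Ihh, Gli1 to Ihh, Ptch1 to Smo and Hand2 to Nr2f2 overlapped between the groups as well. The shares of a library are parts of one sum, so a lower Gli2 share by itself raises the Gli1 share. Both shares include the lower Gli2 level given above and add no separate evidence. In FPKM, Gli1 overlapped between the groups and was lowest in deleted replicate 2, where its share was nevertheless 73.2%. These shares are a description of the libraries and were not tested.

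**Figure D2:**
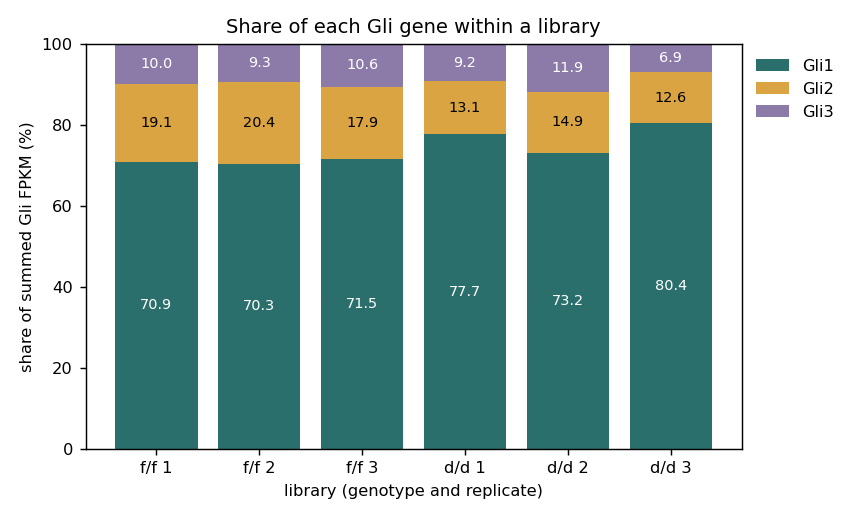
Share (percent, vertical axis) of Gli1, Gli2 and Gli3 in their summed FPKM in each of the 6 libraries. Gli1 was at most 71.5% in controls and at least 73.2% in deleted uteri, and Gli2 was at least 17.9% in controls and at most 14.9% in deleted uteri.

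Hhip (ENSMUSG00000064325; chromosome 8, 79965851 to 80058006, minus strand) encodes a membrane protein that binds and sequesters hedgehog ligands. It was low in every library, at 1.12, 0.652 and 0.806 FPKM in controls and at 1.25, 1.02 and 1.89 in deleted uteri. Deleted replicates 1 and 3 exceeded every control, and replicate 2 lay among them. The log2 change was 0.35 (SE 0.21, 95% interval -0.13 to 0.83, limma adjusted p 0.922), and the scale understates differences at so low a level. With a pseudocount of 0.1 in place of 1 the Hhip change was 0.62, and without deleted replicate 3 it was 0.21.

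The 2 stromal effectors were close to their control levels. Nr2f2 (ENSMUSG00000030551; chromosome 7, 70351944 to 70366735, minus strand) was at 76.7, 74.6 and 72.9 FPKM in controls and at 68.1, 64.3 and 75 in deleted uteri. Deleted replicates 1 and 2 were below the controls and replicate 3 was among them. Nr2f2 had a log2 change of -0.11 (SE 0.10, 95% interval -0.36 to 0.13, limma adjusted p 0.943), an interval that spans 0.78 to 1.09 times the control level. The Nr2f2 change was -0.065 without deleted replicate 2 and -0.17 without deleted replicate 3.

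Hand2 (ENSMUSG00000038193; chromosome 8, 57320983 to 57324633, plus strand) was at 36.2, 36.6 and 39.3 FPKM in controls and at 30, 35.3 and 40.8 in deleted uteri. The deleted values lay on both sides of the control range. The log2 change was -0.09 (SE 0.13, 95% interval -0.39 to 0.22, limma adjusted p 0.967), or 0.761 to 1.16 times the control level, and it was 0.02 without deleted replicate 1 and -0.19 without deleted replicate 3. For the ratio of Hand2 to Nr2f2, control libraries gave 0.472, 0.49 and 0.539 and deleted libraries 0.441, 0.548 and 0.544. Exons of the antisense gene Hand2os1 cover 19.6% of the Hand2 exon bases, and those of an opposite-strand transcript cover 7.46% of the Nr2f2 exon bases. Whether counting used strand is not given in the sources used here, so reads from these partners cannot be told apart.

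**Figure D3:**
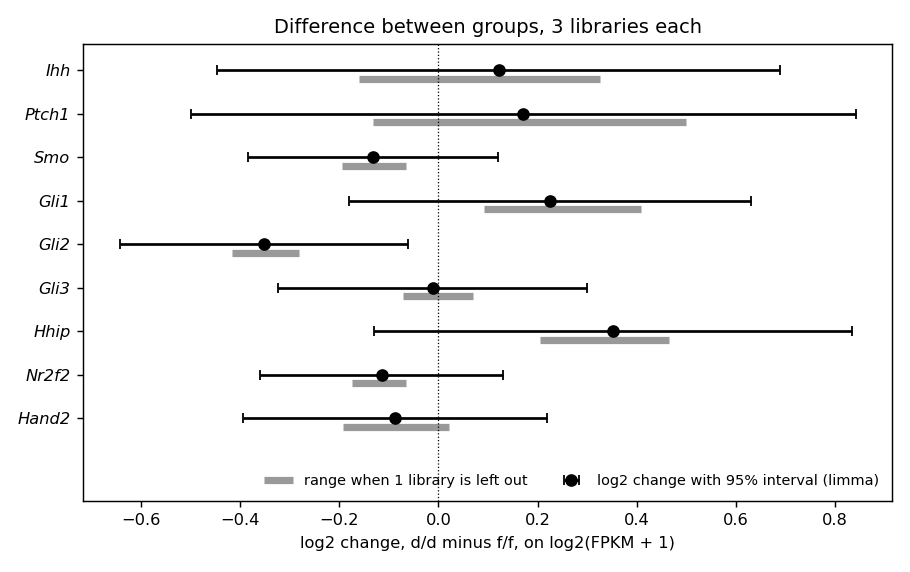
Log2 change (deleted minus control, horizontal axis) of each gene with its 95% limma interval, and in grey the range of the change when 1 library is left out. The interval of Gli2 lies below 0, and those of the other 8 genes cross it.

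Several of the 9 genes had their extremes in the same libraries. Ihh, Ptch1, Gli1, Hhip and Hand2 were highest in deleted replicate 3, as were 22.1% of all tested genes, and the first 4 of these exceeded the control mean by 0.69, 0.77, 0.49 and 0.64 on the log2 scale. Ihh, Ptch1, Gli1, Gli2 and Nr2f2 were lowest in deleted replicate 2, at -0.28, -0.48, -0.14, -0.49 and -0.21, as were 25.7% of all tested genes. Hhip was lowest in control replicate 2. Ihh, Ptch1 and Gli1 had both extremes, as had 12.3% of all tested genes. In whole tissue, fewer cells of a type and less RNA per cell cannot be told apart.

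Across the 6 libraries, Ihh was compared with each of the 8 other genes. Pearson's r with Ptch1 was 0.824 (exact permutation p 0.0625) and Spearman's rho 0.486 (exact permutation p 0.356). With Gli1 r was 0.827 (exact permutation p 0.0292) and rho 0.771 (exact permutation p 0.103). After Benjamini-Hochberg adjustment over the 8 relations the p for r was 0.25 and 0.233, so neither held. Without deleted replicates 2 and 3, the libraries farthest from the median of Ihh, r was -0.67 for Ptch1 and 0.341 for Gli1. Without deleted replicate 3 alone, r was 0.39 for Ptch1 and 0.572 for Gli1. With 4 or 5 libraries and a narrower range of Ihh, these values do not settle whether either relation holds in the remaining libraries. For the other 6 genes r ranged from -0.54 (Gli3) to 0.561 (Hhip).

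Summed levels of several marker lists differed between libraries or groups. The 10 proliferation markers had a mean log2 distance from control of 1.80 in deleted replicate 2 and of -0.88 and -1.34 in replicates 1 and 3. The 10 epithelial markers, which mark the cells that make Ihh, summed to 879 to 943 FPKM in controls and to 953, 832 and 1144 in deleted replicates 1, 2 and 3, with no marker at 0. The 10 stromal markers summed to 4088 to 4634 FPKM in controls and to 3330, 4641 and 3146 in deleted replicates, also with none at 0. Their mean log2 distance from control was -0.42, -0.13 and -0.48 in these libraries, against -0.089 to 0.063 among controls, so by this measure all 3 deleted libraries were lower. The 7 endothelial markers summed to 287 to 328 FPKM in controls and to 253, 274 and 283 in deleted replicates, below every control, with none at 0. The part of these markers in the differences among the 9 genes was not tested.

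**Figure D4:**
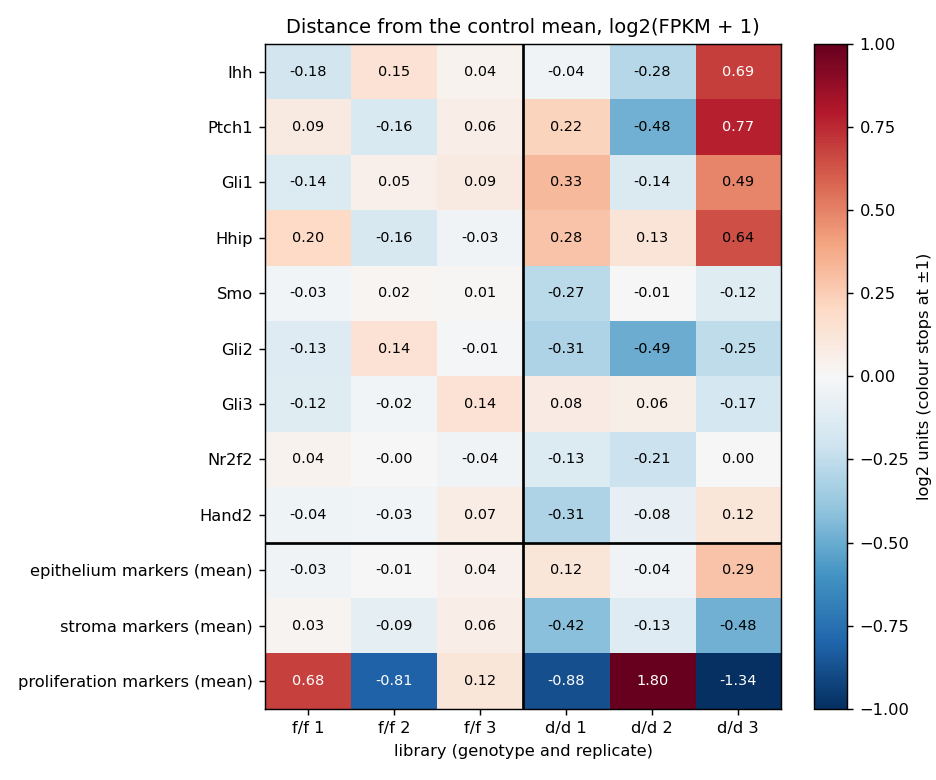
Distance of each library from the control mean on log2(FPKM + 1), for the 9 genes and for the mean of the epithelial, stromal and proliferation markers. Ptch1 runs from -0.48 in deleted replicate 2 to 0.77 in replicate 3, and the proliferation markers from 1.80 to -1.34 in the same libraries.

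The genes were also set against markers of the cells in which each is mainly known to act. Ihh relative to the epithelial markers differed by -0.0023 log2 units between the groups (exact permutation p 1), with deleted values of -0.16, -0.25 and 0.40. Over all tested genes the median difference on this scale was -0.10. Relative to the stromal markers the median difference of all tested genes was 0.37, and 41% of them lay above every control and 0.166% below. All 10 of these markers had lower means in deleted uteri. On this scale Gli2 differed by -0.01 (exact permutation p 1), with deleted values of 0.11, -0.36 and 0.23, so its groups overlapped. Smo, Gli3 and Hhip lay above every control, by 0.21, 0.33 and 0.70 on average, each with an exact permutation p of 0.1, the smallest possible. That is 3 of 8 genes, near the share of all tested genes. Ptch1 (0.51), Gli1 (0.57), Nr2f2 (0.23) and Hand2 (0.26) had overlapping groups and exact permutation p from 0.2 to 0.4.

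Among 49 other genes of the hedgehog route, grouped by role, none passed the test and 44 could be tested. At an unadjusted p under 0.05 there were 2, Scube2 and Gpc3, against 4.98% of all tested genes (2.3% lower and 2.68% higher). Groups did not overlap for 4 of 44, these genes with Sufu and Iqce, against 10.7% of all tested genes (4.6% lower and 6.12% higher). Their median log2 change was -0.04. Genes of the lists named below were taken by abundance, and those singled out for a low p or for separated groups were chosen after their values were seen.

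Of the genes for ligands and their release, Scube1 and Scube2, which encode secreted proteins that help release hedgehog from cells, and Disp1, the ligand exporter Dispatched, were the most abundant. Scube1 was at 12, 14.6 and 16 FPKM in controls and at 6.21, 21.5 and 5.64 in deleted uteri, so that its deleted values lay on both sides of the controls. Scube2 was at 6.8, 6.51 and 7.13 in controls and at 4.46, 5.77 and 4.62 in deleted uteri, below every control (log2 change -0.40, SE 0.13, limma adjusted p 0.922). Disp1 had a log2 change of -0.08.

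Among receptors and co-receptors, Gas1, a co-receptor that aids ligand binding, was the most abundant of the list, with control and deleted means of 156 ± 2.97 and 172 ± 41.4 FPKM (SD, n = 3). Gpc3, a glypican that competes for hedgehog, was at 69.2, 63.1 and 82.4 in controls and at 52.3, 55.9 and 58.3 in deleted uteri, without overlap (log2 change -0.35, SE 0.13, limma adjusted p 0.922). The co-receptor Cdon had a log2 change of -0.13.

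Below Smo, none of 18 tested genes had an unadjusted p under 0.05, and log2 changes ranged from -0.23 to 0.18. The most abundant were Csnk1a1 and Prkacb, kinases that phosphorylate Gli proteins, and Spop, a ubiquitin ligase adaptor for them, with log2 changes of 0.07, 0.0045 and -0.02. Sufu, the inhibitor that holds Gli proteins in the cytoplasm, was at 16.9, 17.1 and 16.5 FPKM in controls and at 12.5, 15.9 and 14.6 in deleted uteri, below every control (log2 change -0.23, SE 0.12, limma adjusted p 0.922). With 1 library left out it ranged from -0.30 to -0.14. Iqce, which encodes a protein of the ciliary complex around Smoothened, was also below every control (log2 change -0.21). For 11 genes of ciliary transport, log2 changes ranged from -0.22 to 0.23, and none had separated groups. Ift27, Ift52 and Ift122, the most abundant of them, had changes of 0.23, 0.13 and -0.11. Leaving out 1 library gave -0.023 to 0.38 for Ift27, 0.056 to 0.16 for Ift52 and -0.20 to -0.024 for Ift122.

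Of 8 further genes known to respond to hedgehog in other tissues, 6 were tested and none was separated between the groups. The cell cycle genes Ccnd2 and Ccnd1 and the survival gene Bcl2, the most abundant, had log2 changes of 0.04, -0.06 and 0.10. None of these kept its sign whichever library was left out. The ranges were -0.026 to 0.16 for Ccnd2, -0.22 to 0.079 for Ccnd1 and -0.059 to 0.31 for Bcl2.

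**Figure D5:**
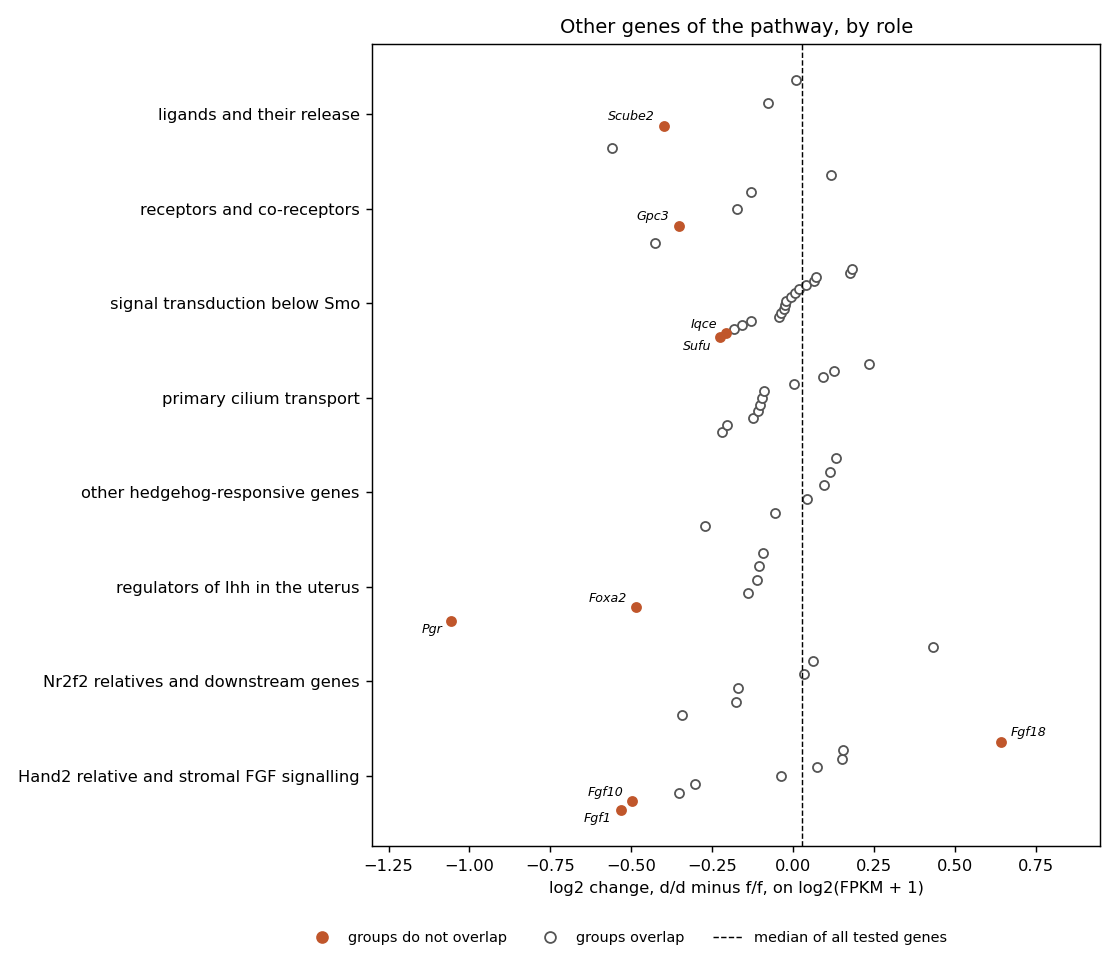
Log2 change (deleted minus control, horizontal axis) of the 44 tested genes of the hedgehog route lists and of those of the Ihh, Nr2f2 and Hand2 lists, by role, with filled points where the groups did not overlap and a dashed line at the median of all tested genes, 0.03. Pgr, at -1.06, and Fgf18, at 0.64, lie farthest from 0.

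Around Ihh, Nr2f2 and Hand2, 21 of 22 listed genes were tested and none passed. At an unadjusted p under 0.05 there were 6 (5 lower and 1 higher), where 4.98% of all tested genes reached that level. Groups did not overlap for 5 (4 lower and 1 higher), where 4.6% of all tested genes were separated downward and 6.12% upward. Of 6 regulators linked to Ihh, Pgr and Foxa2 had separated groups and the other 4 overlapped. All 6 had lower means in deleted uteri, as had 43.4% of all tested genes. Besides Pgr, the most abundant were Esr1, Gata2 and Sox17, an oestrogen receptor gene and 2 transcription factor genes, with log2 changes of -0.14, -0.10 and -0.11. With 1 library left out these ranged from -0.35 to -0.02 for Esr1, from -0.24 to 0.0051 for Gata2 and from -0.32 to 0.072 for Sox17, and both upper values were those without deleted replicate 2. Foxa2, a transcription factor gene of the uterine glands, was at 2.72, 2.18 and 2.06 FPKM in controls and at 1.14, 1.25 and 1.75 in deleted uteri, below every control (log2 change -0.49, SE 0.17, limma adjusted p 0.922).

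Of the Nr2f2 list, Nr2f6, Cebpb and Vcan, a related nuclear receptor, a decidual transcription factor and the matrix proteoglycan versican, were the most abundant, with log2 changes of -0.17, 0.06 and 0.43. Vcan was at 16.9, 32.6 and 13.2 FPKM in deleted replicates 1, 2 and 3 and at 12.3 to 15.3 in controls, and its change was 0.074 without deleted replicate 2. Groups overlapped for all 6 genes of this list.

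Among the fibroblast growth factor genes, differences had both signs. Fgf1 was at 5.76, 7.4 and 5.25 FPKM in controls and at 4.56, 4.08 and 3.16 in deleted uteri, below every control (log2 change -0.53, SE 0.17, limma adjusted p 0.922). Fgf10, a mesenchymal ligand of Fgfr2, was also below every control (log2 change -0.50, SE 0.15), and Fgf2 had a lower mean with overlap (-0.35, SE 0.14). Fgf18 was above every control, at 4.69, 5.42 and 5.83 FPKM against 1.94, 3.16 and 4.35 (log2 change 0.64, SE 0.22, limma adjusted p 0.922). With 1 library left out it ranged from 0.42 to 0.85. The most abundant of the list were the receptors Fgfr2 and Fgfr1 and the adaptor Frs2, with log2 changes of 0.15, -0.30 and -0.04. Leaving out 1 library gave -0.021 to 0.48 for Fgfr2, -0.45 to -0.20 for Fgfr1 and -0.095 to 0.041 for Frs2. Fgfr2 was at 81.8, 42 and 84.8 in deleted uteri and at 56.3 to 61.9 in controls.

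The genes whose levels were most like those of Ihh across the 6 libraries were Klf5 (r 0.995), Slc5a3 (r 0.993) and Tprn (r 0.991). Klf5, an epithelial transcription factor gene, was at 20, 24.4 and 23.6 FPKM in controls and at 22.8, 19.3 and 32.7 in deleted uteri, the same order as Ihh. For Gli1 they were Ikzf3, Tuft1 and Stx8 (r 0.997, 0.994 and 0.994), for Nr2f2 Alcam, Zfp239 and Epn2 (r 0.999, 0.998 and 0.997), and for Hand2 Eif4ebp2, Erlin2 and Thbs2 (r 0.993, 0.99 and 0.99). With 6 libraries, 40 tested genes (0.316%) reached an r of 0.95 with Ihh, 89 with Gli1, 58 with Nr2f2 and 48 with Hand2, and none of these lists is evidence of a shared function.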

How the data were processed

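Polyadenylated RNA of whole uterus was sequenced in 3 libraries from Nat10 f/f and 3 from Nat10 d/d mice, with groups and replicate numbers read from the sample titles. The deposited values are taken as FPKM computed by the authors, 1 table of 20637 genes per library. The unit is inferred from the values, which are not whole, and from Cufflinks being named. HISAT2 2.2.1, Cufflinks 2.2.1 and mm10 are listed, with no role or order, per the submitters' processing notes. The annotation, gene filter and strand setting are not given in the sources used here. Read depth is unknown, so no counting intervals are given.

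Values were analysed as log2(FPKM + 1). Genes at 1 FPKM or more in at least 3 libraries (12640) were tested with limma 3.58.1 in R 4.3.3 (lmFit, eBayes with trend, group as the only term), two-sided, with Benjamini-Hochberg adjustment over all tested genes and a threshold of 0.05. The fit was tested on simulated data. Single values were compared by exact two-sided permutation over libraries (smallest p 0.1), with Python 3.11.15 and scipy 1.17.1. Gene positions are from GENCODE M21 (GRCm38, the same assembly as mm10) and promoters from RefSeq. All 9 genes and Nat10 were named, with the 3 most abundant genes of each list and Shh, Dhh and Pgr. A further gene of the pathway lists is not reported here, and the list counts leave it out, so their split by direction covers the remaining genes only. Members, lists, tests and alternatives were chosen with earlier results of these data known. Alternatives were another pseudocount, 2 other filters, 2 scalings, no trend, array quality weights, a replicate block and leaving out each library. No pair of libraries held identical values.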

Additional observations from a re-analysis of the deposited data

How the results depend on the processing

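For the 9 genes, 14 alternatives (13 for Hhip) gave 0 calls at an adjusted p of 0.05. The smallest adjusted p from limma was 0.0808, for Gli1 with array quality weights, a setting known from earlier results to raise the number of calls. With those weights 316 genes were called over all tested genes and 2 in the lists of other pathway genes, Scube2 and Pgr. Leaving out a library gave from 0 to 12 genes over all tested genes, the 12 without deleted replicate 2, and 0 among the 9. The direction was that reported in 119 of 125 alternative values for the 9 genes. Ihh ranged from -0.16 to 0.32, Ptch1 from -0.13 to 0.50, Gli3 from -0.071 to 0.070 and Hand2 from -0.19 to 0.021 when 1 library was left out, and Gli3 was 0.073 with array quality weights. Those weights also moved Ihh to 0.057, Smo to -0.23 (adjusted p 0.0976), Gli1 to 0.34 and Hand2 to -0.24. Gli1 ranged from 0.093 to 0.41, Hhip from 0.21 to 0.46, Smo from -0.19 to -0.065 and Nr2f2 from -0.17 to -0.065 when 1 library was left out. Relative to markers, Ihh ranged from -0.20 to 0.12, Gli2 from -0.13 to 0.17, Ptch1 from 0.14 to 0.95, Gli1 from 0.37 to 0.86, Smo from 0.14 to 0.26, Gli3 from 0.25 to 0.40, Hhip from 0.48 to 0.92, Nr2f2 from 0.10 to 0.39 and Hand2 from 0.08 to 0.36 when 1 library was left out. The causes were not tested. Scaling moved the median of all genes by under 0.1 log2 units. The labels do not say whether the replicate numbers pair the libraries. The correlations of same-numbered libraries' deviations from their group means were -0.34, -0.029 and 0.1, and not every library correlated best with its own number. With 3 libraries against 3, these correlations cannot settle whether the libraries were paired. With the replicate number as a block, 0 genes were called, 0 among the 9 and 0 in the other lists. With 3 libraries against 3 and unknown depth, the 95% intervals show how uncertain each change is. They are not adjusted over all tested genes and do not mark the smallest change that could be called. Those of Nat10 (-1.51 to -0.71) and Pgr (-1.41 to -0.70) lay below 0, yet neither gene was called in the main fit.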
